A study of Picea abies with 48 samples.

Results

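The genes described here are 150 gene models of Norway spruce (*Picea abies*) that stood higher in the scion than in the rootstock on days 1, 3 and 7 after grafting, and higher in the scion than in intact hypocotyls of the same day. They were picked from 70736 gene models by their counts on those days. Counts scaled to the total of their library (CPM, counts per megaread) were averaged over the 3 replicates of a group and put on the scale log2(mean CPM + 0.5). A gene was eligible when the scion was at least 0.5 above intact plants on all 3 days and the rootstock was no more than 1 below them on day 3, which held for 3672 genes. Eligible genes were ranked by their smallest scion-minus-rootstock difference of the 3 days and the first 150 were taken, after 3 named genes had been left out. Differences on days 1, 3 and 7 therefore chose the genes and are described without a test, and only days 14 and 28 and the day 0 intact plants carry tests.

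The study followed gene expression at the graft junction as cut seedlings healed. Seedlings labelled FP-96. Skogsgård, of genotype WT, were either left ungrafted (intact) or cut in the hypocotyl and grafted to the same species. Scion tissue, from above the junction, and rootstock tissue, from below it, were collected at 5 times, given as days after grafting (DAG), namely 1, 3, 7, 14 and 28, and intact hypocotyls at those times and at day 0, giving 16 groups of 3 libraries. A library was a pool of 5 plants, of which about 1 mm above or below the cut was used for grafts and 2 mm for intact hypocotyls, so that *p* values measure the spread between such pools. Totals were 12850978 to 23256697 counted reads in the scion, 15015857 to 27687377 in the rootstock and 11511598 to 26780688 in intact plants. The 4 genes the study used to follow tissue formation were measured in every group without a zero, namely *PaAPL-like* for phloem, *PaVND4-like* and *PaPRX66-like* for xylem and *PaCDKB2;2-like* for cell division.

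A graft joins the shoot of a plant, the scion, to the lower stem and root of another, the rootstock. Phloem carries sugars and the hormone auxin from shoot to root, and xylem carries water and minerals upwards. A cut through the hypocotyl interrupts both, and the sides have to adhere, form callus and join new vascular strands before transport resumes. Of the 150 genes, 42 have a description in the study's gene tables, 9 more are listed there without one, and the others are known by identifier alone. The described genes include enzymes of inositol and raffinose-family sugar synthesis, enzymes that make or modify auxin, ethylene and abscisic acid, small heat shock and DnaJ-type chaperones, transcription factors, membrane channels and transporters, and cell wall enzymes. All 150 genes together lie on 145 genome scaffolds, 4 of which carry more than 1 of them (9 genes).

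**Figure D1:**
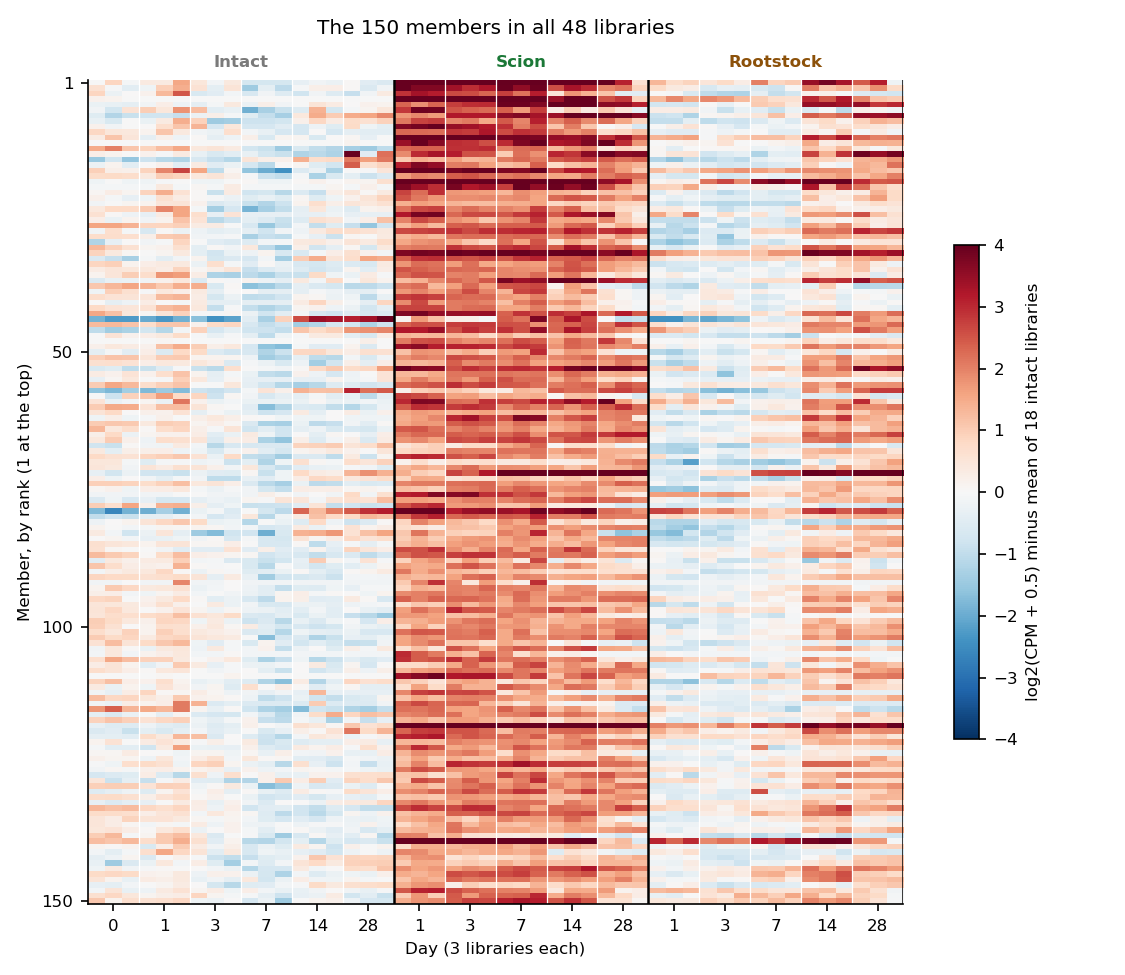
Heat map of the 150 genes (vertical axis, by rank) in the 48 libraries (horizontal axis, by tissue and day, 3 libraries per day). Colour is log2(CPM + 0.5) minus the mean of the 18 intact libraries, cut off at 4 and −4. Scion columns of days 1, 3 and 7, which chose the genes, are red for nearly all genes, and rootstock columns turn red at days 14 and 28.

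On days 1, 3 and 7 the median difference between scion and rootstock over the 150 genes was 2.13, 2.21 and 1.91 on the log2(mean CPM + 0.5) scale, beside 0.10, 0.09 and 0.17 over all 38436 genes that were tested. All 3 scion libraries lay above all 3 rootstock libraries for 150, 150 and 148 of the genes, against a background of 28.0%, 28.8% and 36.9% of all tested genes. These counts follow from the choice of genes. The scion stood 1.57, 2.13 and 2.52 above intact plants at the median, and all 3 of its libraries lay above all 3 intact libraries for 142, 149 and 149 genes, beside 36.1%, 36.7% and 38.1% of all tested genes. Rootstock values, which the ranking used only through the difference and the day 3 limit, were a median of −0.63 on day 1, −0.17 on day 3 and 0.62 on day 7 relative to intact plants, and were negative for 113, 97 and 28 genes. All 3 rootstock libraries lay above the intact ones for 19, 23 and 80 genes (30.9%, 29.8% and 20.2% of all tested) and below them for 76, 38 and 4 (32.0%, 23.9% and 21.8%). In such whole-tissue samples, fewer cells of a type and less RNA per cell cannot be told apart.

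The median level over the genes was 7.71, 8.20 and 8.27 CPM in the scion of days 1, 3 and 7, and 7.55 and 5.05 CPM on days 14 and 28. In the rootstock it was 1.15, 1.07 and 1.55 CPM and then 4.32 and 3.68 CPM. Intact plants held a median of 1.86 CPM at day 0, then 2.14, 1.15, 0.74, 1.30 and 1.55 CPM. The scion mean was highest on day 1 for 50 genes, on day 3 for 35, on day 7 for 38, on day 14 for 13 and on day 28 for 14. Together the genes took 0.548% to 0.647% of a scion library at day 1 and 0.0998% to 0.126% of a rootstock library. *PaAPL-like*, *PaVND4-like*, *PaPRX66-like* and *PaCDKB2;2-like* also had a higher mean in scion than rootstock on days 1, 3, 7 and 14 (4 of 4) and on day 28 (3 of 4). Their summed level in the scion was 31.2 to 38.8 CPM on day 1, 153 to 169.9 on day 3, 116 to 139 on day 7 and 127 to 151 on day 14. In the rootstock it was 17.2 to 19.9, 62.9 to 74.2, 63.3 to 70.8 and 88.7 to 107 CPM on the same days. Intact plants had 63.8 to 76.7, 59.7 to 70.1, 36.0 to 47.4 and 39.4 to 50.1 CPM, above both grafted tissues on day 1. These sums hide different courses of the 4 genes. From day 0 to day 28 in intact plants, mean *PaVND4-like* rose from 8.73 to 27.9 CPM and *PaAPL-like* went from 3.11 to 3.89. *PaPRX66-like* fell from 26.6 to 0.77 CPM and *PaCDKB2;2-like* from 45.0 to 20.3. On day 1, 1 of the 4 had a higher mean in scion than in intact plants, beside 4 of 4 on each later day. The xylem markers differed most on day 3, when *PaVND4-like* had a mean of 20.8 CPM in the scion and 1.22 in the rootstock and *PaPRX66-like* 64.5 and 3.02. *PaCDKB2;2-like* had 67.2 and 60.7 CPM on that day. None of the 4 was called between scion and rootstock on day 14 or 28, but *PaVND4-like* missed only the fold threshold of the calls. Its log2 fold change in edgeR's quasi-likelihood test was 0.64 ± 0.14 on day 14 and 0.59 ± 0.14 on day 28 (± SE, adjusted *p* = 0.0017 and 0.034). The part of these 4 markers in the results below was not tested.

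**Figure D2:**
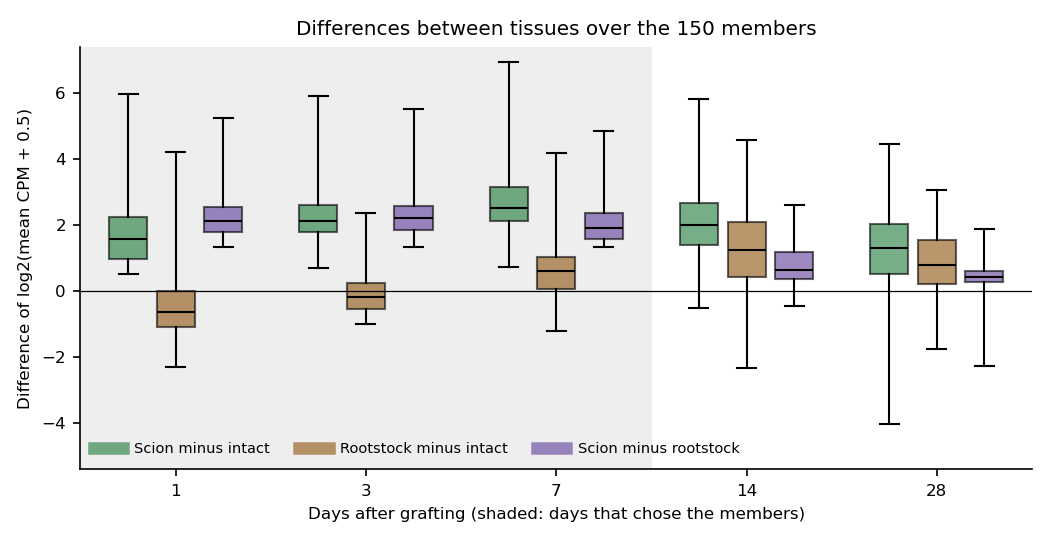
Differences between tissues over the 150 genes (vertical axis, log2 of mean CPM + 0.5) by days after grafting (horizontal axis). Boxes span the quartiles with the median as a line, and whiskers reach the lowest and highest gene. The shaded days chose the genes. At 14 DAG the median scion-minus-rootstock difference was 0.64, beside 2.13 on day 1, while the rootstock-minus-intact median was 1.25, beside −0.63. The ranking used the day 1 difference, so part of both contrasts between the days can follow from the choice of genes.

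The first independent question was whether the genes still stood higher above than below the junction on day 14. A gene was called where edgeR's quasi-likelihood test gave a Benjamini–Hochberg adjusted *p* under 0.05 over all 38436 tested genes and a log2 fold change past 1. Of the 150 genes, 34 were called higher in the scion and 0 lower, beside 1.78% and 1.40% of all tested genes. The median log2 fold change was 0.68 (0.66 with groups without a read set to a floor of 3 reads), against 0.01 over all tested genes. The estimate was above 0 for 141 genes, and all 3 scion libraries lay above all 3 rootstock libraries for 99, beside a background of 22.2%. At an unadjusted *p* under 0.05, 81 genes were higher and 1 lower, and DESeq2 called 35 higher and 0 lower. Here and below, the shares of calls belong to edgeR's adjusted calls past the fold threshold. They are no background for unadjusted or DESeq2 counts. Leaving out single libraries gave 26 to 39 genes called higher, and a fit of the day's libraries with replicate number as a block gave 46. By rank, 20 of the first 50 genes, 8 of the next 50 and 6 of the last 50 were called.

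At 28 DAG the scion was called higher for 1 of the 150 genes and lower for 2, beside 0.0390% and 0.133% of all tested genes. MA_18013g0010, MA_2553455g0010 and MA_41069g0010 had no read in any library of day 28 and could not be called there. They are counted among the 150, and most of their reads lay in the scion of days 1, 3 and 7. MA_10268593g0010 had 5 reads in the day 28 scion and 0 in the rootstock. DESeq2 called 1 higher and 2 lower. The median log2 fold change was 0.50, against 0.00 over all tested genes, and 130 estimates were above 0. All 3 scion libraries lay above all 3 rootstock libraries for 61 genes, beside 10.7% of all tested genes, and below them for 4, beside 5.56%. With the replicate block, which the shared deviation of same-numbered libraries on this day called for, 0 genes were higher in the fit of all libraries and 3 in the fit of the day alone. The change between the days was itself tested as a difference of differences. It was called negative (a smaller or reversed scion excess at day 28) for 4 genes and positive for 1, beside 0.687% and 0.221% of all tested genes, with a median of −0.29 over the 150 genes and 0.01 over all.

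**Figure D3:**
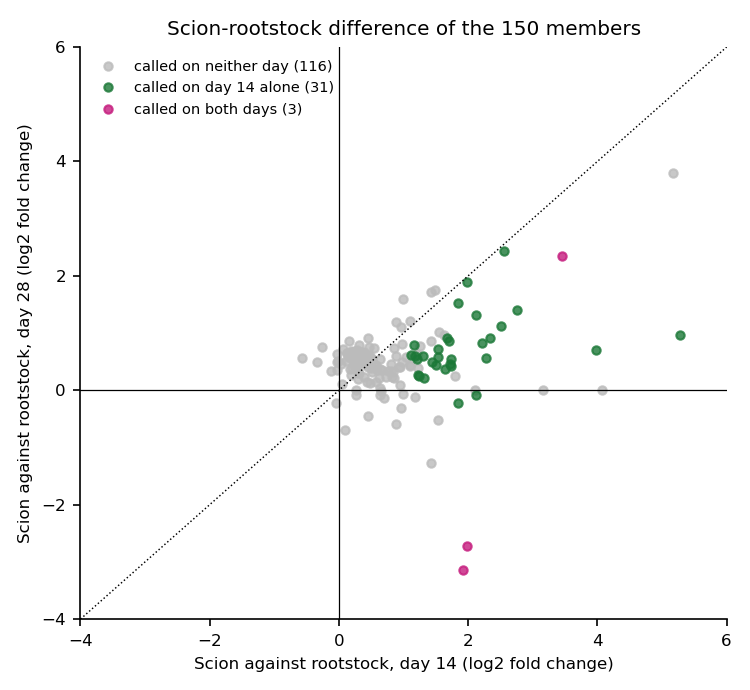
Log2 fold change of scion against rootstock on day 14 (horizontal axis) and day 28 (vertical axis) for the 150 genes, as fitted by edgeR. Points are coloured by whether the gene was called, and the dotted line marks equal change. Of the 34 genes called on day 14, 31 were called on that day alone, and the 3 called on both days were 1 gene higher both times and 2 genes higher on day 14 and lower on day 28. Fitted values of genes with few reads depend on the fit and bound nothing.

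Against intact plants of the same day, 121 of the 150 genes were higher in the day 14 scion and 0 were lower, beside 11.0% and 7.47% of all tested genes. At an unadjusted *p* under 0.05, 132 were higher and 1 lower, and DESeq2 called 121 higher and 0 lower. The day 14 rootstock was higher for 97 genes and lower for 5, beside 9.31% and 4.77%. Both grafted tissues share the 3 intact libraries of their day, so these counts are not independent of each other. Median log2 fold changes were 2.46 in the scion and 1.90 in the rootstock, or 2.39 and 1.88 with zero-read groups at the floor, against 0.07 and 0.03 over all tested genes. All 3 libraries lay above all 3 intact libraries for 134 genes in the scion and 102 in the rootstock, beside 39.4% and 29.2% of all tested genes. Thus 97 genes were called in both tissues and 24 in the scion alone, and 13 of those 24 were also called higher in scion than rootstock. Another 17 genes were called above intact plants in both tissues and higher in the scion than the rootstock as well. No share over all tested genes is given for these joint calls, so they only describe the 150 genes.

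On day 28 the scion was higher than intact plants for 95 genes and lower for 2, beside 7.86% and 2.95% of all tested genes. The rootstock was higher for 75 and lower for 2, beside 7.27% and 1.96%. Medians were 1.59 in the scion and 1.17 in the rootstock (1.62 and 1.22 with zero-read groups at the floor), against 0.05 and 0.04. All 3 libraries lay above the intact ones for 110 genes in the scion and 89 in the rootstock, beside 27.7% and 21.2%. Of these genes 75 were called higher in both tissues and 20 in the scion alone, and 0 of the 20 were called between scion and rootstock. These joint calls, too, have no share over all tested genes beside them. Leaving out single libraries gave 89 to 99 scion calls and 66 to 79 rootstock calls.

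In intact hypocotyls many of the genes fell as the seedlings aged. The choice of genes favoured low intact levels on days 1, 3 and 7, so part of a fall from day 0 can follow from it, which was not tested. The intact median was 1.86 CPM at day 0 and 0.74 CPM on day 7. From day 0 to day 14, 53 of the 150 genes were called lower and 19 higher, beside 8.01% and 7.83% of all tested genes. From day 0 to day 28, 49 were lower and 24 higher, beside 8.06% and 9.87%. Median log2 fold changes were −0.87 and −0.77, against 0.01 and 0.03 over all tested genes. All 3 day 14 libraries lay below all 3 day 0 libraries for 59 genes and above them for 34, beside 19.4% and 30.0%, and those of day 28 for 55 and 37, beside 17.0% and 36.7%. The comparisons share the day 0 libraries, and 42 genes were lower and 16 higher on both days, for which no share over all tested genes is given. A fall in intact plants enters every grafted-against-intact value of that day.

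**Figure D4:**
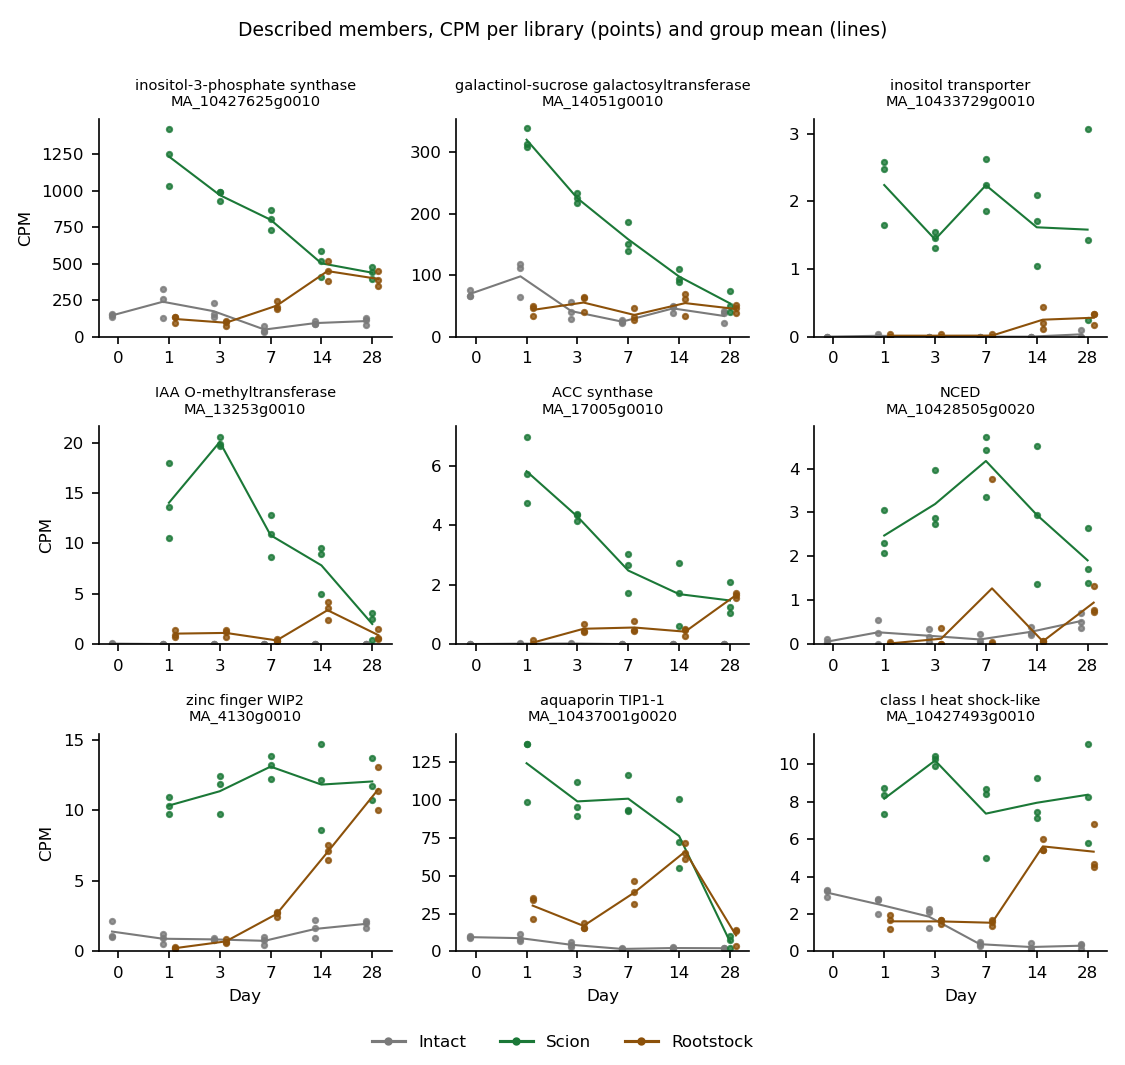
CPM (vertical axis, linear, starting at 0) by day (horizontal axis, evenly spaced) of 9 described genes. Points are single libraries and lines join group means, for intact plants, scion and rootstock. Scion points lie above rootstock points through day 7, apart from 1 rootstock library of NCED at day 7 with 3.76 CPM, and the tissues lie close together by day 28 for most of the genes.

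Among the described genes, MA_10427625g0010, an inositol-3-phosphate synthase, catalyses the first step from glucose 6-phosphate to *myo*-inositol, from which galactinol and raffinose-family sugars are also made. The scion had 1249, 1422 and 1028 CPM in the 3 libraries of day 1, 988, 991 and 927 on day 3 and 731, 866 and 803 on day 7. The rootstock had 134, 94.1 and 134 CPM on day 1, 109, 76.2 and 101 on day 3 and 202, 192 and 242 on day 7, below every scion library of the same day. By day 14 the scion had 405, 584 and 517 CPM, the rootstock 515, 381 and 451 and intact plants 109, 84.8 and 84.3, so that scion and rootstock overlapped and both lay above the intact range. Against intact plants the log2 fold change (± SE, derived from the quasi-likelihood *F* statistic, which can be too small for genes with few reads) was 2.27 ± 0.26 in the scion and 2.22 ± 0.26 in the rootstock (adjusted *p* = 1e-08 and 2.5e-08). Between scion and rootstock it was 0.05 ± 0.25 (adjusted *p* = 0.95). The picture was the same on day 28, with 443, 396 and 474 CPM in the scion, 448, 389 and 347 in the rootstock and 128, 77.1 and 114 in intact plants.

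MA_10433729g0010, a probable inositol transporter 2 of a family that in *Arabidopsis* moves inositol across membranes, stood higher in the scion on day 14. On day 7 the scion had 1.85, 2.62 and 2.24 CPM and the rootstock 0, 0 and 0.046 CPM. On day 14 the scion had 1.05, 2.09 and 1.71 CPM, the rootstock 0.438, 0.114 and 0.20 and intact plants no read. The groups did not overlap, with a log2 difference of 2.56 ± 0.61 (adjusted *p* = 0.0049) between scion and rootstock. The call was lost without rootstock replicate 2 (2.2, adjusted *p* = 0.0513). On day 28 scion libraries had 3.07, 1.43 and 0.252 CPM and rootstock libraries 0.331, 0.334 and 0.173 CPM, overlapping through scion replicate 3, and the log2 fold change of 2.44 ± 0.59 missed the threshold (adjusted *p* = 0.0504) and passed it without that library (2.92, adjusted *p* = 0.0091).

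A pair of probable galactinol–sucrose galactosyltransferase 2 genes, MA_14051g0010 and MA_131024g0010, encode the enzyme class that transfers galactose from galactinol to sucrose and so makes raffinose. Over the 48 libraries their log2 CPM had a Pearson *r* of 0.994, the closest pair among the 150 genes, and reads that fit both copies could have been split or dropped in counting. MA_14051g0010 had 313, 339 and 309.6 CPM in the day 1 scion, 49.8, 34.3 and 46.4 in the rootstock and 64.8, 111 and 119 in intact plants. At 14 DAG the scion had 89.6, 110.5 and 93.5 CPM and the rootstock 61.4, 69.3 and 33.1, still apart. On day 28 scion libraries at 73.9, 49.1 and 39.6 CPM and rootstock libraries at 50.9, 46 and 38.1 CPM overlapped. Neither gene was called between scion and rootstock on day 14 (log2 fold change 0.73 ± 0.27 and 0.76 ± 0.28, adjusted *p* = 0.092 and 0.091) nor on day 28. In intact plants both were lower on day 28 than on day 0 (−1.23 ± 0.27 and −1.23 ± 0.29, adjusted *p* = 0.00039 and 0.00064).

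Among channels and other transporters, MA_10437001g0020, an aquaporin TIP1-1 that passes water through the vacuolar membrane, was higher in both grafted tissues than in intact plants on day 14. On day 1 the scion had 98.9, 137 and 137 CPM and the rootstock 35.4, 21.4 and 34.1. On day 14 scion libraries at 55.5, 101 and 72.6 CPM and rootstock libraries at 61.3, 71.3 and 65.3 CPM overlapped, beside 2.77, 1.46 and 2.6 CPM in intact plants. Log2 fold changes against intact plants on day 14 were 4.92 ± 0.41 and 4.82 ± 0.41 (adjusted *p* = 8.9e-12 and 3.1e-11), with no overlap of grafted and intact libraries. At 28 DAG the scion had 7.36, 9.93 and 2.39 CPM, the rootstock 14.3, 13.8 and 3.69 and intact plants 2.19, 2.4 and 1.85, and scion replicate 3 fell within the intact range. The scion call of that day (1.6 ± 0.44, adjusted *p* = 0.0055) was lost without scion replicate 2 (1.13, adjusted *p* = 0.092) and in the fit of only the groups compared (1.54, adjusted *p* = 0.075).

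MA_101395g0010, a probable boron transporter 2, a class that exports borate, the ion that cross-links pectin, rose with age in intact plants and stood higher than that in the day 14 scion. Intact plants had 0.307, 0.811 and 0.284 CPM at day 0, 5.55, 3.16 and 3.45 at day 14 and 9.12, 6.5 and 9.2 at day 28, log2 fold changes of 2.91 ± 0.29 and 3.89 ± 0.27 (adjusted *p* = 5.7e-11 and 1.5e-15). By day 14 the scion had 11.6, 13.2 and 14.6 CPM and the rootstock 4.44, 3.71 and 3.0 CPM, the latter overlapping with intact plants. The scion was higher than the rootstock by 1.7 ± 0.19 on the log2 scale (adjusted *p* = 1.3e-07). On day 28 the scion (11.9, 10.02 and 11.5 CPM) still lay above all rootstock libraries (5.29, 5.68 and 6.97 CPM), and the difference of 0.86 ± 0.18 (adjusted *p* = 0.018) was under the fold threshold. Of 165 tested genes described as transport proteins, 6 were higher and 2 lower in scion than rootstock on day 14 (median −0.04), beside 1.78% and 1.40% of all tested genes and 96 and 139 of the 3462 tested genes with a description (median −0.04). Of the 6, 2 were the inositol and boron transporters described here.

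Of 3 described enzymes of hormone metabolism, the first acts on auxin. MA_13253g0010, an indole-3-acetate O-methyltransferase 1, an enzyme that converts auxin to its methyl ester, had no read in any intact library from day 1 on. The scion had 13.6, 10.5 and 18 CPM on day 1, 19.9, 20.6 and 19.7 on day 3 and 8.61, 11 and 12.9 on day 7, and the rootstock at most 1.42 CPM in those 9 libraries. On day 14 the scion had 5.01, 8.94 and 9.49 CPM and the rootstock 3.63, 2.34 and 4.13, which did not overlap. Set against a floor of 3 reads over the 3 intact libraries, the scion was at least 116-fold and the rootstock at least 49.9-fold higher. These bounds cover counting error only, and edgeR's test gave adjusted *p* = 4.2e-09 and 6.1e-07. The difference between scion and rootstock, 1.1 ± 0.36, missed the threshold (adjusted *p* = 0.0529) and passed it without scion replicate 1 (1.35, adjusted *p* = 0.024), with the block within the day (1.09, adjusted *p* = 0.014) and with library size scaling (1.21, adjusted *p* = 0.026). Of 48 tested genes described as auxin-related, 1 was higher and 6 were lower in scion than rootstock on day 14, with a median of −0.41, beside the same 1.78% and 1.40% of all tested genes and 96 and 139 of 3462 described genes.

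MA_17005g0010, a 1-aminocyclopropane-1-carboxylate synthase 3-like gene, encodes the enzyme that makes the direct precursor of ethylene. It was almost unread in intact plants, with 2 reads in all 18 intact libraries. The scion had 4.73, 5.73 and 6.99 CPM on day 1 and 2.66, 1.72 and 3.04 on day 7, while the rootstock had 0.141, 0 and 0 CPM on day 1 and 0.433, 0.778 and 0.46 on day 7. At 14 DAG the scion had 0.606, 1.71 and 2.72 CPM against 0.50, 0.286 and 0.466 CPM in the rootstock, a log2 difference of 1.85 ± 0.47 (adjusted *p* = 0.0083) without overlap. On day 28 rootstock libraries at 1.65, 1.56 and 1.73 CPM overlapped with the scion (2.09, 1.06 and 1.26 CPM). Set against a floor of 3 reads in intact plants of day 28, which had none, the scion was at least 27.3-fold and the rootstock at least 30.7-fold higher. The day 14 call was lost without scion replicate 3 (1.38, adjusted *p* = 0.099) and without rootstock replicate 2 (1.63, adjusted *p* = 0.068), and in the fit of only the groups compared (1.84, adjusted *p* = 0.068).

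MA_10428505g0020, a 9-cis-epoxycarotenoid dioxygenase (NCED), the enzyme of the committed step of abscisic acid synthesis, was nearly absent from the rootstock on day 14. On that day the scion had 1.38, 2.95 and 4.51 CPM and the rootstock 0.0625, 0.0571 and 0.0666 CPM, which was 1 read in each library. The ratio of scaled reads was 44.9-fold (95% counting interval 15.1 to 220.5, adjusted *p* = 0.002), and the interval covers counting error only. The day 14 scion was also above intact plants (0.396, 0.243 and 0.195 CPM), with a log2 difference of 3.21 ± 0.91 (adjusted *p* = 0.0039). A rootstock library stood apart on day 7, when replicate 1 had 3.76 CPM and the others 0.0519 and 0 CPM. At 28 DAG the scion had 2.64, 1.7 and 1.38 CPM and the rootstock 0.728, 0.78 and 1.33 CPM, which did not overlap but were not called (0.97 ± 0.74, adjusted *p* = 0.77).

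MA_10229741g0010, a TIFY 10a gene of the family that represses jasmonate responses in *Arabidopsis*, was chosen after its values were seen, because replicates diverged on day 28. By day 14 the scion had 4.24, 6.53 and 4.82 CPM and the rootstock 2.13, 1.43 and 1.4, without overlap, and intact plants had 2 reads in all. The scion was 117-fold (95% counting interval 32 to 969, adjusted *p* = 0.00033) above intact plants, and the scion–rootstock difference was 1.54 ± 0.78 (adjusted *p* = 0.27), or 1.53, adjusted *p* = 0.00059 with the block within the day and 1.54, adjusted *p* = 0.0033 in the fit of only the groups compared. On day 28 replicate 1 was high in both tissues, with scion libraries at 9.14, 1.33 and 0.503 CPM and rootstock libraries at 4.23, 0.78 and 0.288 CPM. The rootstock call against intact plants on that day was lost without its replicate 1 (4.43, adjusted *p* = 0.15). Undescribed MA_8757791g0010 was likewise highest in replicate 1, at 7.61, 0.874 and 0.252 CPM in the scion and 3.24, 0.947 and 0.461 CPM in the rootstock. Over the 150 genes, scion replicate 1 of day 28 was the highest of its group for 76, replicate 2 for 50 and replicate 3 for 24. In the day 14 scion, replicate 1 was the highest for 10 genes, replicate 2 for 72 and replicate 3 for 68. The part of these uneven replicates in the results of days 14 and 28 was not tested.

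Of the 3 genes described as transcription factors, 2 were higher in the scion than in intact plants on day 14 and all 3 on day 28, and 0 were called between scion and rootstock on either day. MA_4130g0010, a WIP2 zinc finger of a family that acts in root and vascular patterning in *Arabidopsis*, had 9.78, 10.3 and 11 CPM in the day 1 scion and 0.234, 0.302 and 0.17 in the rootstock. Its rootstock level was 2.74, 2.44 and 2.81 CPM on day 7, 7.57, 6.45 and 7.13 on day 14 and 13.1, 10.03 and 11.4 on day 28, when it overlapped with the scion (11.7, 13.7 and 10.8 CPM). Against intact plants the log2 fold changes on day 28 were 2.58 ± 0.22 in the scion and 2.54 ± 0.22 in the rootstock (adjusted *p* = 2.1e-12 and 1.1e-11).

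MA_291092g0010, an AT-hook motif nuclear-localized 20-like gene of a family of DNA-binding proteins, was near 0 in young intact plants (0.0767, 0 and 0 CPM at day 0) and reached 1.01, 0.563 and 0.719 CPM there at day 28. The scion held 13.7, 13.9 and 19.1 CPM on day 1 and 14.2, 12.5 and 17.8 on day 14. The rootstock held 2.39, 1.9 and 2.08 CPM on day 1 and 12, 7.65 and 9.46 on day 14, when its libraries still lay below the scion. Both tissues lay above all intact libraries on day 14, with 4.84 ± 0.31 and 4.34 ± 0.32 on the log2 scale (adjusted *p* = 3.6e-16 and 3.1e-14), and 0.49 ± 0.20 between them was not called (adjusted *p* = 0.13). MA_56828g0010, a Dof zinc finger, a plant-specific class of DNA-binding proteins, had 22.9, 23.5 and 24 CPM in the scion, 14.5, 14.4 and 16.8 in the rootstock and 10.2, 8.29 and 9.25 in intact plants on day 28. That scion was called against intact plants (1.3 ± 0.16, adjusted *p* = 2.2e-08) and the rootstock was not (0.71 ± 0.16, under the fold threshold). Undescribed MA_10431997g0010, listed with WIP2 and the Dof gene in the study's yellow module of transcription factors, was higher in both tissues on day 14 (1.66 ± 0.15 and 1.19 ± 0.15, adjusted *p* = 1.7e-12 and 1.4e-08). Of the 60 tested genes of that module, 40 were higher and 0 lower in the day 14 scion than in intact plants (median 1.42), but the study chose the module on these samples, so its direction is not independent. Of 185 tested genes described as transcription factors, 88 were higher and 4 lower in the day 14 scion than in intact plants (median 1.12), and 5 were higher and 5 lower than in the rootstock (median 0.06), beside 11.0% and 7.47%, and 1.78% and 1.40%, of all tested genes. Genes with a description in the study's tables moved as a whole, with 1032 of 3462 tested higher and 159 lower in the day 14 scion than in intact plants (median 0.64).

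MA_10427493g0010 and MA_10427493g0030, described as class I heat shock-like and heat shock-like, belong to small heat shock proteins, which keep damaged proteins from aggregating, and lie on the same scaffold with undescribed MA_10427493g0020. Their levels ran together over the 48 libraries (Pearson *r* of log2 CPM 0.956 to 0.980), so the 3 genes are not separate evidence. MA_10427493g0010 had 3.22, 3.3 and 2.9 CPM in intact plants at day 0 and 0.0792, 0.182 and 0.456 at day 14, a log2 fold change of −3.74 ± 0.38 (adjusted *p* = 8e-11). The day 14 scion had 7.1, 7.45 and 9.26 CPM and the rootstock 6.0, 5.43 and 5.39 CPM, 4.79 ± 0.34 and 4.41 ± 0.35 above intact plants (adjusted *p* = 7.9e-15 and 3.5e-13). The scion stood at 8.15 ± 0.719 CPM and the rootstock at 1.61 ± 0.365 CPM (SD, n = 3) on day 1, and the day 14 difference was not called (0.38 ± 0.21, adjusted *p* = 0.32).

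Genes like RTM2, named in *Arabidopsis* for restricting the movement of a tobacco etch virus, carry a domain related to small heat shock proteins. MA_125984g0010, described as an inactive form, fell in intact plants from 2.07, 1.46 and 0.682 CPM at day 0 to 0.118, 0.0512 and 0.103 at day 28 (−4.01 ± 0.59, adjusted *p* = 3.4e-07). The day 28 scion had 3.68, 7.31 and 4.28 CPM and the rootstock 3.11, 2.34 and 3.63 CPM, 5.7 ± 0.48 and 4.96 ± 0.52 above intact plants (adjusted *p* = 3.3e-12 and 1.4e-09). MA_10427210g0030, another such gene, chosen after its values were seen, also fell in intact plants by day 28 (−2.76 ± 0.38, adjusted *p* = 1.1e-07) and was higher in both grafted tissues (3.82 ± 0.35 and 3.19 ± 0.36, adjusted *p* = 5.4e-11 and 1.4e-08). A pair of DnaJ homologs, a class of co-chaperones of HSP70, were picked in the same way. MA_137928g0010 had 3.63, 2.68 and 3.81 CPM in the day 14 scion and 2.0, 1.94 and 2.26 in the rootstock without overlap, and 2 reads in intact plants. MA_10428362g0010 had 7.93, 7.82 and 7.31 CPM in the scion and 5.69, 5.54 and 5.59 CPM in the rootstock, 3.36 ± 0.37 and 3.01 ± 0.38 above intact plants (adjusted *p* = 5.7e-10 and 1.8e-08).

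Wall enzymes on the list were few. MA_104065g0020, an expansin, a protein that loosens cell walls, had 25.5, 28 and 28 CPM in the day 28 scion, 12.6, 17.8 and 18.3 in the rootstock and 7.82, 5.01 and 7.04 in intact plants. No groups overlapped, and log2 fold changes were 2.0 ± 0.18 for scion and 1.29 ± 0.18 for rootstock against intact plants (adjusted *p* = 8.2e-12 and 4.4e-07), and the scion–rootstock difference of 0.71 ± 0.16 (adjusted *p* = 0.034) was under the fold threshold. MA_10428610g0010, a probable pectinesterase 53, which removes methyl groups from pectin, was the last gene taken by rank. It had 27.6, 31.2 and 28.3 CPM in the day 7 scion, 18.1, 23.9 and 17.7 on day 14 and 4.35, 4.46 and 2.9 on day 28. The rootstock had 12.2, 9.996 and 11.9 CPM on day 14 and 5.89, 4.18 and 2.65 on day 28, apart from the scion on day 14 and overlapping on day 28. On day 14 it was above intact plants in both (2.57 ± 0.22 and 1.86 ± 0.23, adjusted *p* = 2.2e-12 and 1.5e-08), and 0.70 ± 0.19 between them was under the fold threshold. Of 32 tested expansins and xyloglucan endotransglucosylases, 18 were higher and 3 lower in the day 14 scion than in intact plants, and of 102 tested pectin-modifying genes 48 were higher and 7 lower (medians 1.91 and 1.00). All tested genes were at 11.0% higher and 7.47% lower, and of 3462 described genes 1032 were higher and 159 lower (median 0.64).

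MA_10430876g0010, a multicopper oxidase in the study's laccase list, had 1 read in intact plants of day 14. The scion had 4.27, 4.54 and 6.7 CPM on day 1 and 0.881, 1.23 and 1.4 on day 14. The rootstock had 1.22, 1.29 and 1.27 CPM on day 1 and 0.563, 1.09 and 0.666 on day 14, when it overlapped with the scion. The scion was 51-fold (95% counting interval 8.79 to 2049.5, adjusted *p* = 2.2e-06) above intact plants. MA_19018g0010, L-ascorbate oxidase-like, from a related class of copper enzymes that oxidize vitamin C in the cell wall, and MA_123068g0010, a probable L-gulonolactone oxidase 6, a class linked to vitamin C synthesis, were chosen after their values were seen. MA_19018g0010 had 2.86, 3.54 and 3.35 CPM in the day 14 scion, 1.13, 0.343 and 0.466 in the rootstock and 0.238, 0 and 0.13 in intact plants, with 2.22 ± 0.41 between scion and rootstock (adjusted *p* = 0.00023). MA_123068g0010 had 4.3, 5.09 and 4.59 CPM in the scion, 0.625, 0.857 and 1.07 in the rootstock and 0.158, 0.0607 and 0.13 in intact plants, with a scion–rootstock difference of 2.34 ± 0.35 (adjusted *p* = 9.7e-06). For both, all scion libraries lay above all rootstock libraries on day 14, and neither was called between them on day 28 (0.82 ± 0.39 and 0.92 ± 0.36, adjusted *p* = 0.48 and 0.34).

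MA_10436386g0010 and MA_10279989g0010, both described as villin-3, encode actin-bundling proteins. They were chosen after their values were seen and may share reads (Pearson *r* of log2 CPM 0.978). MA_10436386g0010 had 24.1, 26.6 and 29.6 CPM in the day 14 scion and 20.2, 21.7 and 25.3 in the rootstock, beside 2.3, 1.76 and 2.41 in intact plants. Both tissues were far above intact plants, by 3.46 ± 0.20 and 3.32 ± 0.20 (adjusted *p* = 2.9e-17 and 1.2e-16), and overlapped with each other. MA_122993g0010, a flavanone 3-hydroxylase of flavonoid synthesis chosen in the same way, had 87, 88.4 and 92.3 CPM in the scion, 110.0, 63.2 and 81.5 in the rootstock and 20.04, 17.9 and 26 in intact plants. On day 28 its intact libraries (76.9, 29.3 and 44.8 CPM) overlapped with the scion (55.8, 62.5 and 47.7 CPM). MA_125291g0010, a catechol O-methyltransferase by its description and also chosen after its values were seen, had 4.29, 4.37 and 4.59 CPM in the day 28 scion, 2.65, 1.73 and 3.46 in the rootstock and 0.829, 0.563 and 0.154 in intact plants. It was higher than intact plants in both tissues (3.07 ± 0.41 and 2.34 ± 0.43, adjusted *p* = 1.3e-07 and 5.3e-05).

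Of the 3 genes named for water or cold stress, all chosen after their values were seen, 1 was called between scion and rootstock on day 14. MA_187114g0010, a dehydrin, a protein made when tissue dries, had 5.67, 9.12 and 7.07 CPM in the day 7 scion and 6.21, 0.311 and 0.598 in the rootstock, where replicate 1 stood apart. On day 14 the scion had 5.29, 6.7 and 6.54 CPM, the rootstock 1.38, 1.88 and 1.86 and intact plants 1.66, 1.34 and 1.56. Scion and rootstock did not overlap, yet the call (1.73 ± 0.57, adjusted *p* = 0.0498) sat at the threshold and was lost without any 1 of the 6 libraries (adjusted *p* from 0.072 to 0.14) and with the replicate block (1.73, adjusted *p* = 0.06). MA_10427828g0010, described as water-stress inducible, and MA_103578g0010, described as low temperature induced, had log2 fold changes of 1.17 ± 0.40 (adjusted *p* = 0.058) and 0.93 ± 0.25 (adjusted *p* = 0.012, under the fold threshold), and their scion libraries also lay above all rootstock libraries. Both passed with library size scaling (1.29, adjusted *p* = 0.029 and 1.05, adjusted *p* = 0.0041) and without rootstock replicate 2 (1.59, adjusted *p* = 0.038 and 1.15, adjusted *p* = 0.013).

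A probable disease resistance gene, MA_10428616g0010, of the class of intracellular immune receptors, ranked 8th. It had 44.1, 66.8 and 71.9 CPM in the day 1 scion and 4.88, 4.88 and 7.43 in the rootstock. At 14 DAG the scion had 39.9, 53.5 and 37.7 CPM and the rootstock 14.4, 17.1 and 11.3, without overlap. The day 14 difference was 1.5 ± 0.41 (adjusted *p* = 0.016), and it was lost without scion replicate 2 (1.32, adjusted *p* = 0.079) or rootstock replicate 3 (1.36, adjusted *p* = 0.087). Of 134 tested genes described as defence proteins, 6 were higher and 9 lower in scion than rootstock on day 14 (median −0.04), beside 1.78% and 1.40% of all tested genes and 96 and 139 of 3462 described genes.

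The gene with the widest scion excess in the first week was MA_7017g0010, which has no description. It had 58.8, 68 and 56 CPM in the day 1 scion, 56.9, 51.6 and 51.2 on day 3 and 67.8, 45.4 and 72 on day 7, against at most 2.78 CPM in the 9 rootstock libraries of those days, and its smallest difference was 4.86. By day 14 the scion had 23.1, 49.8 and 45.4 CPM and the rootstock 8.69, 11.2 and 7.59 CPM, a log2 difference of 1.98 ± 0.58 (adjusted *p* = 0.026). That call was lost with DESeq2 (1.98, adjusted *p* = 0.096) and without any of 5 single libraries (adjusted *p* from 0.067 to 0.1), all but scion replicate 1. On day 28 scion libraries spread over 35.4, 6.48 and 0.755 CPM and the rootstock over 3.97, 6.8 and 0.23 CPM, and the difference was not called.

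Other undescribed genes near the top of the ranking held more even late values. MA_81274g0010 had 4.92, 3.29 and 4.88 CPM in the day 1 scion and 0.141, 0.173 and 0.127 in the rootstock, and on day 14 the scion had 25.1, 31.7 and 27.8 CPM and the rootstock 11.6, 11.8 and 10.2. On day 14 the scion was higher than the rootstock by 1.22 ± 0.17 (adjusted *p* = 4.3e-06) and higher than intact plants by 4.9 ± 0.24 (adjusted *p* = 5.9e-19). MA_46423g0010, at most 0.360 CPM in any intact library, had 21.4, 38.7 and 36 CPM in the day 14 scion and 9.69, 8.17 and 9.06 in the rootstock, 1.72 ± 0.23 apart (adjusted *p* = 3.6e-06). MA_96695g0010 had 2.81, 2.09 and 2.72 CPM against 0.50, 0.343 and 1.13 on day 14 (1.85 ± 0.42, adjusted *p* = 0.0023) and fell in intact plants from day 0 (−2.64 ± 0.69, adjusted *p* = 0.002). Scion and rootstock libraries of these 3 genes did not overlap on day 14.

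Undescribed genes of ranks 2, 3, 6 and 9 had less firm calls. MA_10006601g0010 had 7.49, 12.9 and 10.2 CPM in the day 14 scion against 5.0, 2.46 and 3.0 in the rootstock (1.44 ± 0.36, adjusted *p* = 0.008), a call lost without scion replicate 2 (1.22, adjusted *p* = 0.061) or rootstock replicate 2 (1.24, adjusted *p* = 0.075) and with the replicate block within the day (1.42, adjusted *p* = 0.08). MA_69177g0010, MA_194736g0010 and MA_8206949g0010 were not called (1.48 ± 0.57, 1.1 ± 0.55 and 1.42 ± 0.58, adjusted *p* = 0.11, 0.26 and 0.14), although all their scion libraries lay above all rootstock libraries on that day. With the block within the day all 3 passed (1.42, adjusted *p* = 0.0089, 1.11, adjusted *p* = 0.00062 and 1.39, adjusted *p* = 0.019).

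Only MA_93177g0010, undescribed and of rank 12, was called higher in scion than rootstock on both late days. It had no read in intact plants before day 28, and the scion had 5.01, 7.54 and 5.84 CPM on day 1, 3.38, 3.2 and 2.47 on day 3 and 3.47, 6.15 and 7.39 on day 7. At 14 DAG the scion had 4.24, 4.55 and 6.15 CPM and the rootstock 0.938, 0.114 and 0.20. On day 28 the scion had 8.04, 3.4 and 1.2 CPM and the rootstock 0.728, 0.836 and 0.807, and the tissues overlapped on neither day. The log2 fold change was 3.44 ± 0.59 on day 14 (adjusted *p* = 0.00023) and 2.36 ± 0.53 on day 28 (adjusted *p* = 0.04). The day 28 call was lost without any of 5 single libraries (adjusted *p* from 0.084 to 0.22), all but scion replicate 3, with the replicate block (2.31, adjusted *p* = 0.061), without a filter on low counts (2.35, adjusted *p* = 0.062) and in the fit of only the groups compared (2.35, adjusted *p* = 0.35).

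**Figure D5:**
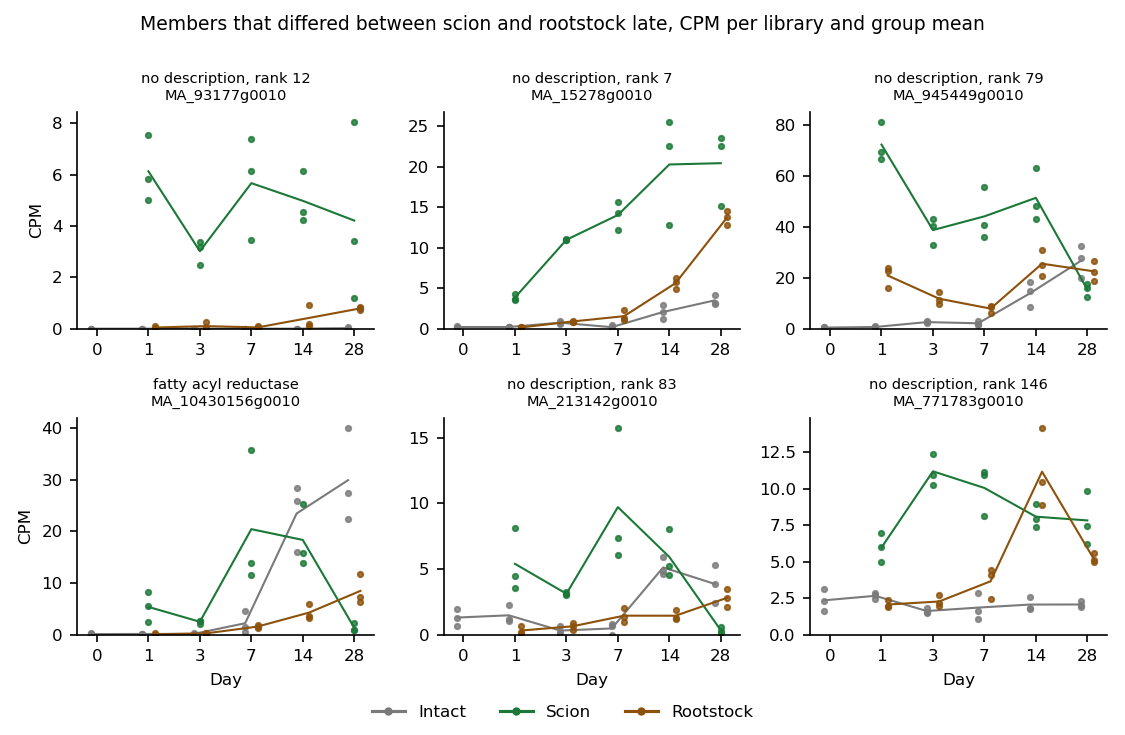
CPM (vertical axis, linear, starting at 0) by day (horizontal axis, evenly spaced) of the 6 genes called on both late days or in the test of change between them. Points are single libraries and lines join group means. In MA_10430156g0010 and MA_213142g0010 the scion lies above the rootstock on day 14 and below it on day 28. Intact plants of the former were higher on day 28 than on day 0.

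The order of the tissues turned for MA_10430156g0010, a fatty acyl reductase 2, an enzyme class that makes fatty alcohols for wax, cutin and suberin. By day 14 the scion had 13.9, 25.3 and 15.9 CPM, the rootstock 3.56, 5.94 and 3.33 and intact plants 16.1, 28.4 and 26. At 28 DAG the scion had 2.21, 0.874 and 0.944 CPM and the rootstock had 11.8, 7.35 and 6.28, so that the order was reversed without overlap. The scion–rootstock log2 fold change was 1.98 ± 0.45 on day 14 and −2.72 ± 0.55 on day 28 (adjusted *p* = 0.0034 and 0.015), and the change between the days −4.7 ± 0.71 (adjusted *p* = 0.00041). Intact plants rose from 0.23, 0.0541 and 0.0568 CPM at day 0 to 22.5, 27.4 and 39.97 at day 28 (7.93 ± 0.78, adjusted *p* = 2.9e-10), above both grafted tissues. The day 28 scion–rootstock call was lost without rootstock replicate 1 (−2.4, adjusted *p* = 0.15) or scion replicate 2 or 3 (−2.45, adjusted *p* = 0.12 and −2.56, adjusted *p* = 0.12). Of 66 tested genes of lipid, cutin and wax metabolism, 12 were higher and 1 lower in scion than rootstock on day 14 (median 0.28), beside 1.78% and 1.40% of all tested genes and 96 and 139 of 3462 described genes. By day 28, 0 were higher and 1 lower, beside 0.0390% and 0.133% of all tested genes.

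Undescribed MA_213142g0010 had the same course, with 4.52, 8.03 and 5.21 CPM in the day 14 scion and 1.25, 1.88 and 1.2 in the rootstock, without overlap. On day 28 the scion had 0.552, 0.138 and 0.315 CPM and the rootstock 3.51, 2.79 and 2.13, in the opposite order. Its log2 fold changes were 1.91 ± 0.47 and −3.14 ± 0.64 (adjusted *p* = 0.0062 and 0.015) and the change between days −5.05 ± 0.79 (adjusted *p* = 0.00055). The day 14 call was lost without scion replicate 2 (1.61, adjusted *p* = 0.0528), and the day 28 call without rootstock replicate 1 or scion replicate 2 or 3 (adjusted *p* from 0.092 to 0.13).

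For 3 further genes the scion–rootstock difference changed between the days without a reversal of calls. MA_15278g0010, undescribed and of rank 7, had 12.8, 22.5 and 25.4 CPM in the day 14 scion and 6.25, 4.86 and 5.73 in the rootstock, and on day 28 23.6, 22.5 and 15.2 CPM in the scion and 13.8, 12.8 and 14.5 in the rootstock, with the scion above on both days. Its difference of 1.73 ± 0.23 on day 14 (adjusted *p* = 1.7e-06) had shrunk by day 28 (change −1.19 ± 0.31, adjusted *p* = 0.037), a call lost in the fit of only the groups compared (−1.21, adjusted *p* = 0.12) and without any of 9 of the 12 single libraries, all but replicate 1 of the day 14 scion, day 14 rootstock and day 28 scion (adjusted *p* from 0.053 to 0.15). MA_945449g0010 had 43.2, 48 and 63.1 CPM in the day 14 scion and 25.1, 30.8 and 20.7 in the rootstock, but 17.5, 16 and 12.6 CPM in the day 28 scion and 22.4, 26.4 and 18.9 in the rootstock, below it (change −1.47 ± 0.33, adjusted *p* = 0.017). That call was lost without any of 4 single libraries, namely replicate 3 of the day 14 rootstock, day 14 scion or day 28 scion, or replicate 2 of the day 28 rootstock (adjusted *p* from 0.058 to 0.067). MA_771783g0010 moved the other way. It had 7.93, 8.94 and 7.39 CPM in the scion and 8.88, 10.5 and 14.2 in the rootstock on day 14, and 7.42, 9.84 and 6.23 in the scion and 4.96, 5.13 and 5.59 in the rootstock on day 28 (change 1.13 ± 0.28, adjusted *p* = 0.03). The call was lost with scaling by library size (1.05, adjusted *p* = 0.0508) and without any of 7 of the 12 single libraries (adjusted *p* from 0.057 to 0.14), namely replicate 2 or 3 of the day 14 rootstock, 1 or 2 of the day 28 rootstock, 1 or 3 of the day 14 scion or 2 of the day 28 scion.

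Of the 150 genes, 5 were called lower in the rootstock than in intact plants on day 14 and 2 on day 28, beside 4.77% and 1.96% of all tested genes. MA_201252g0010, undescribed, was lower in the rootstock than in intact plants on both late days (−1.63 ± 0.29 and −1.17 ± 0.28, adjusted *p* = 1.5e-05 and 0.0014), as intact plants rose (1.4 ± 0.28 on day 14, adjusted *p* = 0.00012). Its day 28 estimate fell under the fold threshold without intact replicate 3 (−0.94, adjusted *p* = 0.021). MA_276627g0010 had 0.25, 0.40 and 0.20 CPM in the day 14 rootstock, 0.634, 2.37 and 0.912 in intact plants and 1.93, 2.79 and 1.63 in the scion. Its rootstock was below intact plants (−2.26 ± 0.56, adjusted *p* = 0.0011), a call lost without intact replicate 2 (−1.47, adjusted *p* = 0.069), and below the scion (2.75 ± 0.53 for scion against rootstock, adjusted *p* = 0.00033). MA_41069g0010 was called lower in the day 14 rootstock from intact replicate 2 alone, which had 1.09 CPM where the other intact and all rootstock libraries had no read, and it had no read in any library of day 28.

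MA_6088g0020, MA_5051g0010 and MA_464836g0010, all undescribed, stood out in single comparisons. MA_6088g0020 had 1.54, 1.93 and 1.01 CPM in the day 14 scion and 0.0625, 0.171 and 0 in the rootstock, a log2 difference of 3.98 ± 0.83 (adjusted *p* = 0.001), but 0.245, 0.23 and 0.126 CPM in the scion and 0.132, 0.0557 and 0.173 in the rootstock on day 28, which overlapped. MA_5051g0010 fell in intact plants from 6.44, 9.51 and 4.77 CPM at day 0 to 0.474, 0.409 and 0.719 at day 28 (−3.86 ± 0.28, adjusted *p* = 5.5e-15) and had 2.76, 3.95 and 3.52 CPM in the day 28 scion and 2.85, 1.89 and 2.77 in the rootstock. MA_464836g0010 had no read in intact plants of day 28, 1.66, 1.88 and 0.252 CPM in the scion and 1.19, 0.947 and 0.576 in the rootstock, at least 23.6-fold and 16.9-fold higher.

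MA_5320g0010 and MA_39164g0010, undescribed, were among the 5 genes with the highest mean scion CPM in the first week, a choice that also reflects gene length. MA_5320g0010 had 921, 1316 and 1153 CPM in the day 1 scion and 354, 306 and 368 in the rootstock. At 28 DAG the scion had 458, 518 and 459 CPM and the rootstock 290.4, 363 and 369. It was higher than intact plants in the day 28 scion (1.26 ± 0.13, adjusted *p* = 8.9e-10) and its scion–rootstock difference of 0.46 ± 0.13 was not called (adjusted *p* = 0.11), though the libraries did not overlap. MA_39164g0010 had 459, 494 and 532 CPM in the day 1 scion and 107, 86.2 and 86.8 in the rootstock, while on day 28 scion libraries at 86.9, 108 and 83.7 CPM and rootstock libraries at 83.3, 111 and 77.4 CPM overlapped.

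The ranking has no natural end. The last genes inside, MA_14667g0010, MA_10436535g0010 and MA_10428610g0010, had smallest scion-minus-rootstock differences of 1.332, 1.331 and 1.327, and the first outside, MA_349993g0010, MA_901965g0010 and MA_127848g0010, of 1.326, 1.325 and 1.322. With a pseudocount of 2 in place of 0.5, 99 of the 150 genes would be taken again. With CPM from TMM-scaled libraries or a pseudocount of 0.25, 135 would be.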

How the data were processed

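Stranded poly(A) RNA-seq of 48 libraries was deposited by the authors as raw counts of reads per gene, made by removing ribosomal reads with SortMeRNA, filtering with fastp, aligning with STAR to the *P. abies* v1.0 assembly and counting by strand with HTSeq, per the study's methods; replicates were not pooled further. The table has 70736 gene models, of which 15492 had no read. Totals of 11511598 to 27687377 reads set the precision: a gene at 0.1 CPM has about 1 to 3 reads, so values of that size rest on single reads, and the intervals and floors given cover counting error only.

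The members and the lists were chosen with earlier results of these data known, and no reference sequence was used. Genes named in the text are the first 10 by rank, members of the study's gene lists or of keyword lists (up to 6 per list), the 3 largest called rises and falls of each comparison, the 5 with the highest mean scion CPM over days 1, 3 and 7, the genes at the end of the ranking, and others said to be chosen after their values were seen. Descriptions come from the study's supplementary tables.

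Counts of all 48 libraries were filtered (filterByExpr, minimum count 10, leaving 38436 genes and all 150 members), scaled by TMM and fitted with 16 groups in edgeR 4.0.16 (robust quasi-likelihood, limma 3.58.1, R 4.3.3), with Benjamini–Hochberg adjustment over all tested genes and calls where the adjusted *p* was under 0.05 and the log2 fold change was past 1 in size. The scripts were tested on simulated data. Tables were handled with Python 3.11.15, pandas 2.3.3 and numpy 2.4.6. Where a group had no read, a bound was set with a floor of 3 reads over the group, and where it had 1 to 3 reads an exact 95% interval of the ratio of reads was taken. Alternatives were DESeq2 1.42.0, other scalings and filters, a fit of only the groups compared, leaving out each library, and a replicate block. Replicate numbers come from the labels. Deviations of same-numbered scion and rootstock libraries from their group means correlated at 0.14 to 0.20 on day 14 and 0.24 to 0.41 on day 28. Every such pair was over 0.1, which was not so in the other comparisons. The labels do not say whether these libraries come from the same grafts. The main counts and adjusted *p* values come from the fit without a block, which ignores any such pairing. The block over all libraries sets the same replicate effect for all 16 groups, intact plants included, and the block within the day does not.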

Additional observations from a re-analysis of the deposited data

Results flagged for a closer look

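The scion–rootstock difference changed between day 14 and day 28, in a test of the difference of differences over all tested genes, for 4 genes in the direction of a smaller or reversed scion excess and for 1 in the other. The log2 change was −5.05 for MA_213142g0010 and −4.70 for the fatty acyl reductase MA_10430156g0010, whose tissues swapped order. It was −1.47 for MA_945449g0010 and −1.19 for MA_15278g0010, and 1.13 for MA_771783g0010. The groups hold 3 libraries each, so no library was tested for standing apart from its group.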

How the results depend on the processing

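Counts of members called were within 1.5 times the value given, or equal to it, under the other alternatives run, except as follows. For scion above rootstock on day 28 (1 gene) there were 2 with library size scaling, 2 with a filter of 1 CPM in 6 libraries, 0 with the replicate block, 0 in the fit of only the groups compared, 3 with the block within the day, and 0 to 2 with 1 library left out. For scion below rootstock on day 28 (2 genes) leaving out a library gave 0 to 2. For rootstock below intact plants (5 genes on day 14, 2 on day 28) there were 3 in the fit of only the groups compared and 8 with DESeq2 on day 14, and leaving out a library gave 3 to 7 on day 14 and 1 to 2 on day 28. The change between days was positive for 0 genes with library size scaling (1 otherwise), for 0 to 1 with a library left out, and negative for 2 to 8 (4 otherwise). Under a pseudocount of 2 the ranking took 99 of the 150 genes again, and 118 to 128 with a replicate number left out. MA_41069g0010, called from a single library, had a log2 fold change of −5.90 in the day 14 rootstock against intact plants and ran from −6.49 to 0.00 with 1 library left out. Among results for single genes, 148 calls were lost and 71 gained of those recomputed under the alternatives, and 7062 stayed on their side of the threshold. The cause was not tested. Another 1 was counted as reversed, namely MA_41069g0010, whose estimate reached 0.00 and did not become positive with 1 library left out. Scaling by library size moved the median of all genes by over 0.1, to 0.12 for scion against rootstock and 0.25 for scion against intact plants on day 14, and 0.12 and 0.21 for intact plants of days 14 and 28 against day 0. With the replicate block, 33 genes were called higher in scion than rootstock on day 14, and 46 within the day. Depth limits genes with few reads, whose fitted values are no bounds.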
